A study of Mus musculus with 6 samples.

Results

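The CD209 cluster is a run of genes on mouse chromosome 8 that encode C-type lectins, receptors that bind sugars on microbes and on host cells. Described here are 6 of its genes, Cd209a, Cd209b, Cd209c, Cd209d, Cd209f and Clec4g, out of 32875 genes with at least 1 deposited transcript record, of which 10502 had enough counts to be tested. They were picked as CD209-family and neighbouring lectin genes with results of these data known, so their group differences are given as a description with no p. RNA had been sequenced from peritoneal macrophages (PMs), cells of the abdominal cavity sorted as CD11b+ F4/80+ with B cells gated out, with 1 library per mouse and 3 mice in each group. The control mice were non-autoimmune [NZW × BALB/c]F1 females of 33, 33 and 30 weeks. The diseased-BWF1 mice were lupus-prone [NZB × NZW]F1 females of 31, 31 and 34 weeks, which by the study's methods had antibodies against double-stranded DNA and severe proteinuria. All 6 mice carried NZW chromosomes from a parent, and by the methods the groups share an H2 haplotype. The groups differ in disease and in the strain of the other parent, and these cannot be told apart. In a bulk sample, fewer cells that make a transcript and less of it in each cell cannot be told apart either.

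C-type lectins of this family hold sugars with a calcium-dependent recognition domain at the outer end of a single-pass membrane protein. Human CD209 (DC-SIGN) binds mannose- and fucose-bearing glycans and passes signals to NF-kappa B. The mouse has several related genes in its place. The product of Cd209b (SIGN-R1) is known from macrophages of the splenic marginal zone and the peritoneum, where it takes up bacterial capsular polysaccharide. Cd209a is widely used as a marker of monocyte-derived dendritic cells, and Clec4g (LSECtin) was described on sinusoidal endothelium of liver and lymph node.

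Total counts per library ranged from 3629901 to 5003360, of which 89.1% to 93.0% lay on genes, and 3 counts, the floor used here for a gene listed at 0, corresponded to 0.652 to 0.889 CPM (counts per 1000000 counts on genes). The labels number the samples of each group beside strain and age, and p-values measure the spread between these 6 libraries.

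The members lie within 399 kb of chromosome 8 on GRCm38.p6, between positions 3707066 and 4105838, and all are on the minus strand. Clec4g is at chr8:3707066-3720695, Cd209a at chr8:3743395-3748984, Cd209d at chr8:3871824-3878548, Cd209b at chr8:3917655-3926841, Cd209c at chr8:3940081-3954746 and Cd209f at chr8:4102784-4105838. Another 9 annotated genes lie inside this span, and 0 of them had enough counts to be tested. In GENCODE vM21 the transcripts paired with the most counted curated records have 10 exons and 975 coding bases in Cd209b, 7 and 714 in Cd209a, 7 and 711 in Cd209d, 5 and 534 in Cd209c, 8 and 765 in Cd209f, and 9 and 882 in Clec4g.

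The genes are related, but in reference transcripts most of them can be told apart by reads of 75 bases. A stretch of 60 coding bases from 1 exon of Cd209b, placed around its longest run shared with Cd209c, is shown with the best matching stretch of 4 neighbours, since it shows how far a read from 1 gene could be taken for another. Capitals mark bases that differ from Cd209b. Positions are on the minus strand of GRCm38, and the sequences are those of GENCODE vM21 transcripts.
Cd209b, chr8:3919980-3920039: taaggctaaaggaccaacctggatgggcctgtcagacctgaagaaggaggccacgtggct
Cd209a, chr8:3745534-3745593: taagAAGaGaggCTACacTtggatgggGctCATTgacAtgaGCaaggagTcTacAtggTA
Cd209c, chr8:3944103-3944162: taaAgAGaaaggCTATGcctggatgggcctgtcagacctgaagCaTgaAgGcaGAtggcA
Cd209d, chr8:3873769-3873828: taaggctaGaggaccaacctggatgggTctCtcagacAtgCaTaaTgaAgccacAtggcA
Cd209e, chr8:3851210-3851269: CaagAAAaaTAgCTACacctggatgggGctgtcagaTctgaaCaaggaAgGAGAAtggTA
Cd209d differed from Cd209b at 10 of these 60 bases, Cd209c at 15, Cd209e at 21 and Cd209a at 22. Over whole paired transcripts, the longest exact run that Cd209b shared was 26 bases with Cd209c, 25 with Cd209d and 18 with Cd209a. No 75-base sequence of Cd209a, Cd209b, Cd209d or Clec4g occurred in a transcript of another gene. In Cd209c 4.97% did, and in Cd209f 23.5%. Cd209f and Cd209g share a run of 416 bases. Counts of Cd209c, Cd209f and Cd209g are uncertain for that reason. All these sequences are of the reference genome and not of the NZB, NZW or BALB/c strains. Whether strain differences in the cluster altered how reads were assigned was not tested.

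The 250 bases before the start sites of Cd209a, Cd209b and Clec4g, the members with the largest group differences among those that passed the filter, are shown because these genes were low in the same mice. Sequences and starts are those of RefSeq on GRCm38.p6, written 5′ to 3′ on the minus strand, and capitals mark the motif matches named after them. The window of Cd209b ends with 3 bases of a GENCODE exon of the same gene. That of Clec4g overlaps an intron of the long non-coding RNA gene Gm16553 on the plus strand. Its last part, from position 3720652, also lies inside the RefSeq span of Clec4g, which reaches 3720695. The capitals near the end of the Clec4g window are in that part, so they are not upstream of the whole annotated gene.
Cd209b, chr8:3926842-3927091: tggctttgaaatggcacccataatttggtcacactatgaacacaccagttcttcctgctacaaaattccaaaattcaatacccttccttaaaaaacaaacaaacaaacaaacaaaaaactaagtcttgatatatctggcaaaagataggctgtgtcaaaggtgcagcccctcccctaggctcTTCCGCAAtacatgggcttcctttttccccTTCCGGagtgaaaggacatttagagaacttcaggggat
Cd209a, chr8:3748985-3749234: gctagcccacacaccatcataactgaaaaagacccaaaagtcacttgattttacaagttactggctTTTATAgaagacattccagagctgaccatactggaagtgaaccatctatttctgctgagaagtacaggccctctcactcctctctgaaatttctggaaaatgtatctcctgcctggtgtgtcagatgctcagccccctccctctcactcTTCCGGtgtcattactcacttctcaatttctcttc
Clec4g, chr8:3720652-3720901: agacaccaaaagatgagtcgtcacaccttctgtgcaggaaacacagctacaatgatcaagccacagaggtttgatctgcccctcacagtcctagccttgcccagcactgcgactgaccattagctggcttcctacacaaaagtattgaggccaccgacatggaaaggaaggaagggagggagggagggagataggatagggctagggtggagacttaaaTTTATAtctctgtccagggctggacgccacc
Motifs were searched on both strands. GAGGAA stood for PU.1, the letters TTNNGCAA for C/EBP, TATAAA for a TATA box and TTCCGG for the ETS core, which was added after the sequences had been read. PU.1 had no match in the windows shown, nor had AP-1, IRF and STAT6 motifs, which were searched as well. PU.1 belongs to the ETS family and its motif shares the letters GGAA with the ETS core. Cd209a and Cd209b each held an ETS core on the gene's strand close to the start, at 35 to 30 bases before it in Cd209a and 38 to 33 in Cd209b. The core also lay in the windows of Cd209e, Cd209f and Cd209g. Thus 5 of 9 windows of the cluster's genes held it, against 12% of 32851 windows of all genes. Some windows not shown run into GENCODE exons of their own gene. These make up all 250 bases in Cd209g, 71 in Cd209f, 56 in Cd209d, 23 in Cd209e, 21 in Cd209c and 1 in Fcer2a. Cd209f and Cd209g are the pair with the long shared run, so their windows may not count separately, and since the core was chosen from these sequences nothing is read from its share. Cd209b had a C/EBP match 68 to 61 bases before the start, a motif in 9.56% of all windows. TATA box letters stood on the opposite strand in Cd209a, 184 to 179 bases before the start, and in Clec4g, 31 to 26 bases before it, and occurred in 5 of the 9 windows of the cluster and 12.4% of all windows. A match of letters describes the sequence and is not a bound site.

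Cd209b was the most abundant member in PMs of control mice and was lower in every diseased-BWF1 mouse. Its counts were 1085, 1047 and 1147 in control mice 1 to 3 and 151, 295 and 78 in diseased-BWF1 mice 1 to 3. The highest diseased-BWF1 mouse, mouse 2, stayed well below the lowest control mouse, and the 3 diseased-BWF1 mice spread more widely relative to their mean. Scaled with DESeq2's size factors, which correct for library depth, the mean of the controls was 1096 ± 207.1 normalized counts (SD, n = 3) and that of the diseased-BWF1 mice 173.8 ± 113.6. The fitted log2 fold change was -2.66 (standard error, SE, 0.45, edgeR), and -3.30 without diseased-BWF1 mouse 2.

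Cd209a was lower by a wider margin. Counts of 162, 207 and 244 in control mice stood against 8, 18 and 5 in diseased-BWF1 mice. Here too mouse 2 was the highest of the diseased-BWF1 group, and mouse 3 the highest of the controls. The normalized means were 208.8 ± 72.5 and 10.3 ± 7.03, and the log2 fold change was -4.34 (SE 0.47), or -5.01 without diseased-BWF1 mouse 2.

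Clec4g was close to the limit of detection in diseased-BWF1 mice. Its counts were 25, 40 and 55 in control mice against 0, 2 and 0 in diseased-BWF1 mice. The 120 control counts against 2 gave a ratio of 59.9 after scaling for depth, with a 95% counting interval of 16.2 to 500.1. The fitted log2 fold change, which depends on the prior count for a gene so low, was -5.73 (SE 0.86), and -8.40 without diseased-BWF1 mouse 2, which held both counts of its group. The 2 diseased-BWF1 counts lay on a predicted non-coding record. The curated record had 116 counts in control mice against 0 in diseased-BWF1 mice, which makes it at least 38.6-fold lower if 3 counts over the whole group are taken as the floor. Such floors and intervals use counts summed over the mice of a group and take each read as independent. They leave out the spread between mice and reads copied by PCR.

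Cd209d (SIGN-R3) and Cd209c (SIGN-R2), which encode lectins related to SIGN-R1, were low in both groups but did not behave alike. Cd209d did not pass the filter on low counts. It had 12, 9 and 12 counts in control mice against 1, 1 and 0 in diseased-BWF1 mice, groups that do not overlap. The ratio of 33 to 2 counts, scaled for depth, was 16.5 with a 95% counting interval of 4.21 to 141.6, and a fit without the filter gave a log2 fold change of -3.84 (SE 0.78). Cd209c passed the filter, with 26, 15 and 10 counts against 13, 6 and 12. Its groups overlapped, with normalized means of 16.1 ± 5.08 and 10.2 ± 3.53 and a log2 fold change of -0.68 (SE 0.42). Of its counts, 10 lay on 2 predicted records and all of these came from control mice, and the curated record alone had 22, 9 and 10 counts against 13, 6 and 12. Cd209f had 2, 0 and 0 counts in control mice and 0 in each diseased-BWF1 mouse, which is under the floor of 3 counts in every library, and no fold change is given for it.

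**Figure D1:**
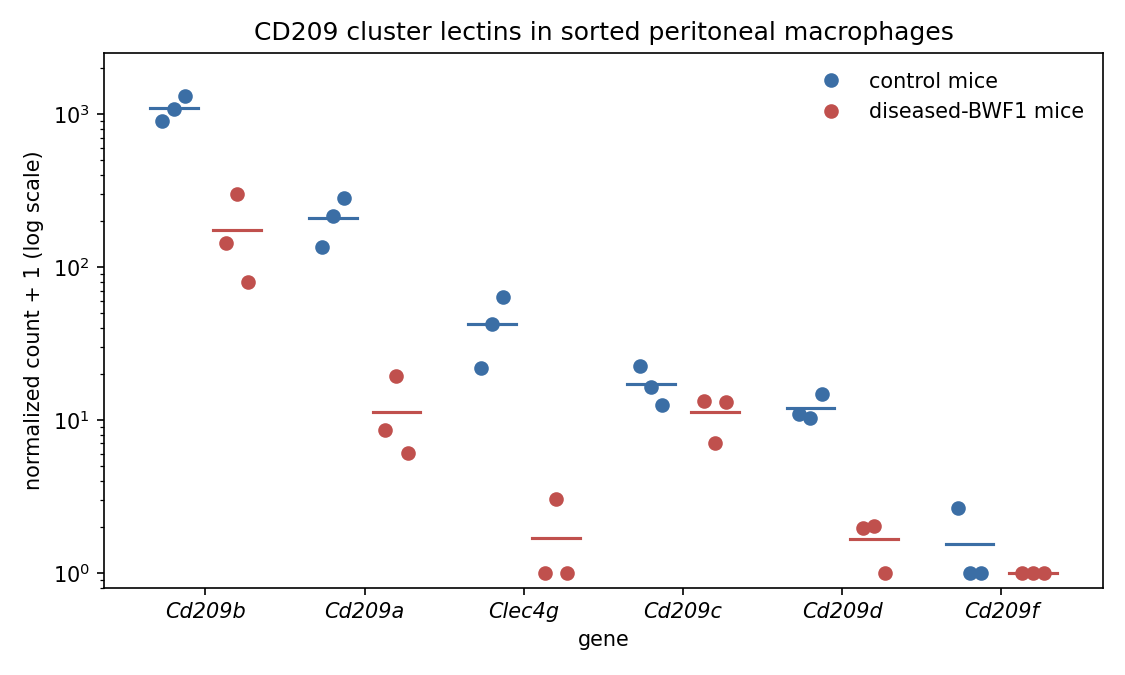
Normalized counts of the 6 cluster lectins in each mouse. Points are mice (blue, 3 control; red, 3 diseased-BWF1), bars are group means, and the vertical axis is a log scale of the normalized count + 1. The groups stand apart for Cd209b, Cd209a, Clec4g and Cd209d and overlap for Cd209c, while Cd209f is at or near 0 throughout.

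Of the 6 members 4 passed the filter, and 3 of these, Cd209a, Cd209b and Clec4g, were past the threshold for lower expression in diseased-BWF1 mice (adjusted p under 0.05 and at least 1.5-fold). Over all 10502 genes tested 0.819% were past it in that direction and 0.4% in the other (DESeq2, 3.55% in all, 2.29% lower and 1.27% higher). Control and diseased-BWF1 mice did not overlap for 4 members, Cd209d included, with diseased-BWF1 mice lower, as for 11.1% of all genes tested, while 9.82% were higher without overlap. Because the members were chosen on this same contrast, nothing is read from these shares.

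Levels of different genes were compared as CPM divided by the length of the paired transcript in kb. In control mice Cd209b stood first at 142.2 ± 27.9 CPM per kb (SD, n = 3), with 116.2 to 171.7 over the mice. Cd209a followed at 37.3 ± 13.2, with a range of 23.9 to 50.2 that did not reach that of Cd209b. Clec4g was at 8.87 ± 4.56, with 4.40 to 13.5, below every Cd209a value. Cd209d at 3.16 ± 0.721 and Cd209c at 2.75 ± 0.855 did not differ beyond their spread, and the lowest Clec4g mouse was near both. Cd209f was last, at 0.368 in control mouse 1 and 0 in the others. In diseased-BWF1 mice Cd209b still led at 22.2 ± 14.5, and the order below it was another one. Cd209a at 1.81 ± 1.23 and Cd209c at 1.71 ± 0.593 lay within each other's spread, and Cd209d at 0.185 ± 0.161 and Clec4g at 0.142 ± 0.245 were both under the level of Cd209c in every mouse.

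The balance between the 2 most abundant members also differed between the groups. Cd209b made up 87.0%, 83.5% and 82.5% of the summed counts of Cd209a and Cd209b in control mice and 95.0%, 94.3% and 94.0% in diseased-BWF1 mice. The means were 84.3% ± 2.39 and 94.4% ± 0.513, so the ratio of the pair was not the same. Cd209b reads were spread over 5 transcript records, and 1 curated record held most of them, with 67.8%, 53.5% and 80.7% in control mice and 76.8%, 70.9% and 76.9% in diseased-BWF1 mice. These shares overlapped between the groups, with means of 67.4% ± 13.6 and 74.9% ± 3.48. Without control mouse 2, which had the lowest share, the groups were 0.58 percentage points apart in place of 7.51. The counts are estimates that a program divided among overlapping records, so the precision of these shares is not known from the counts alone.

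The remaining lectin genes of the cluster were nearly silent. Cd209e (SIGN-R4) had 2, 1 and 4 counts in control mice and 0 in each diseased-BWF1 mouse. Cd209g had 0, 1 and 1 counts against 0 in each. Both had too few counts for a fold change. Fcer2a, which encodes the low-affinity IgE receptor CD23 of B cells and borders the cluster, had 6, 6 and 2 counts against 6, 6 and 4, and its groups overlapped. Cd209h was not analysed here. None of these genes passed the filter.

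None of the tested genes around the cluster passed the threshold. Within 1 Mb of either end, 43 other genes had a record and 18 were tested. Of these 0 were past the threshold, against 1.22% of all genes tested in either direction, and DESeq2 also called 0, while 2 had an unadjusted p under 0.05 (edgeR), as had 13.2% of all genes. These were Mcoln1, a lysosomal ion channel, at -0.70 (SE 0.17, adjusted p = 0.121, edgeR) and Arhgef18, a guanine nucleotide exchange factor, at 0.51 (SE 0.18, adjusted p = 0.282, edgeR) on the log2 scale, both without overlap of the groups and both named after their values were seen. The median log2 fold change of the 18 was 0.07, beside 0.005 over all genes tested, with 11 fitted above 0 and 7 below. Trappc5, a subunit of the TRAPP vesicle tethering complex and the nearest tested gene on the side of Clec4g at a distance of 26.1 kb, had 108, 111 and 112 counts in control mice against 135, 146 and 107 in diseased-BWF1 mice. Its groups overlapped, with a log2 fold change of 0.21 (SE 0.20, adjusted p = 0.709, edgeR). Map2k7, a kinase of the JNK pathway 132.9 kb beyond Cd209f, had 272, 223 and 184 counts against 234, 266 and 236, with a log2 fold change of 0.13 (SE 0.12, adjusted p = 0.721, edgeR).

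**Figure D2:**
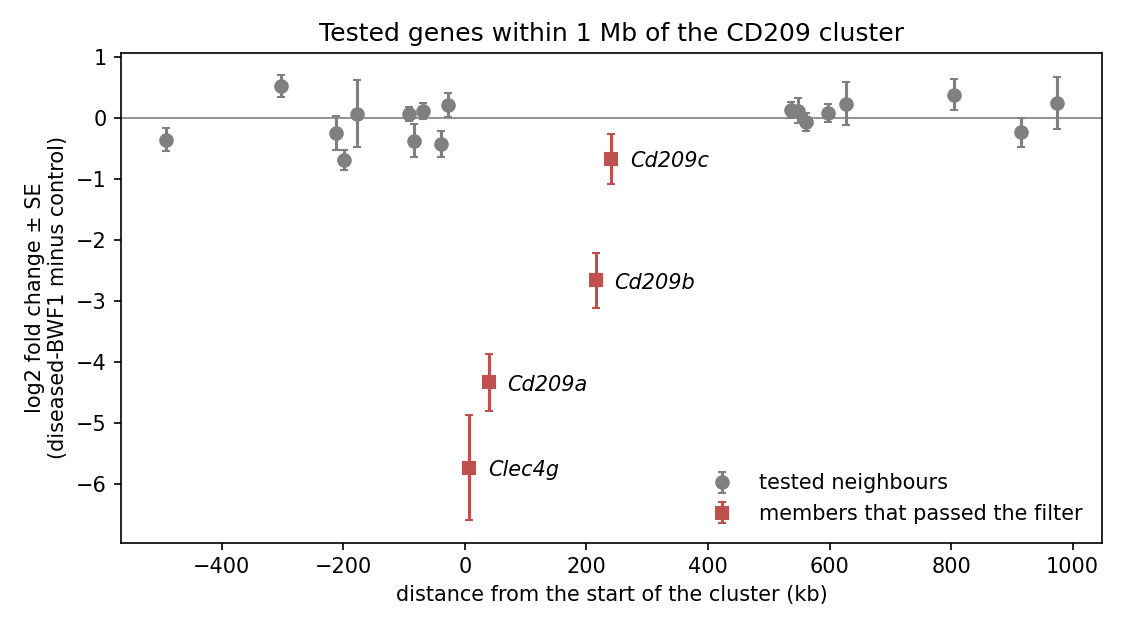
Log2 fold change (diseased-BWF1 minus control) with its standard error for the tested genes within 1 Mb of the cluster, against the distance of the middle of each gene from the cluster's start in kb. Red squares are the 4 members that passed the filter and grey circles the 18 tested neighbours, which range from -0.70 (Mcoln1) to 0.51 (Arhgef18).

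Other genes with a C-type lectin-like domain were looked up to see how far the difference extended in the superfamily. Of 41 listed, 22 were tested. At the threshold edgeR called 0 higher and 1 lower, 4.55% of those tested against 1.22% of all genes. The list's median log2 fold change was 0.011. An unadjusted p under 0.05 (edgeR) was found for 7, against 13.2% of all genes. DESeq2 called 2 higher and 2 lower, against 1.27% and 2.29% of all genes. Mrc1, the macrophage mannose receptor CD206, fell from 2719, 2145 and 1952 counts to 1091, 830 and 1299, a log2 fold change of -1.08 (SE 0.18, adjusted p = 0.044, edgeR). Selp, the gene of P-selectin and the one with the most counts in the list, had 5461 to 6223 counts in control mice and 4257 to 6597 in diseased-BWF1 mice, or a log2 fold change of -0.18 (SE 0.21). Cd93, a receptor with a C-type lectin-like domain, came next in counts and had a log2 fold change of -0.26 (SE 0.22), with overlapping groups. DESeq2 also called Colec12 lower, at a log2 fold change of -1.80 (SE 0.32, adjusted p = 0.0516, edgeR). It called Olr1 higher, at 1.44 (SE 0.28, adjusted p = 0.0651, edgeR), and Clec5a higher, at 2.27 (SE 0.55, adjusted p = 0.125, edgeR). Colec12, Olr1 and Clec5a had groups without overlap and were named after their values were seen. The call of Mrc1 was lost without control mouse 1, 2 or 3 or diseased-BWF1 mouse 1 or 2, at adjusted p from 0.0901 to 0.167 and log2 fold changes from -1.08 to -0.93.

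**Figure D3:**
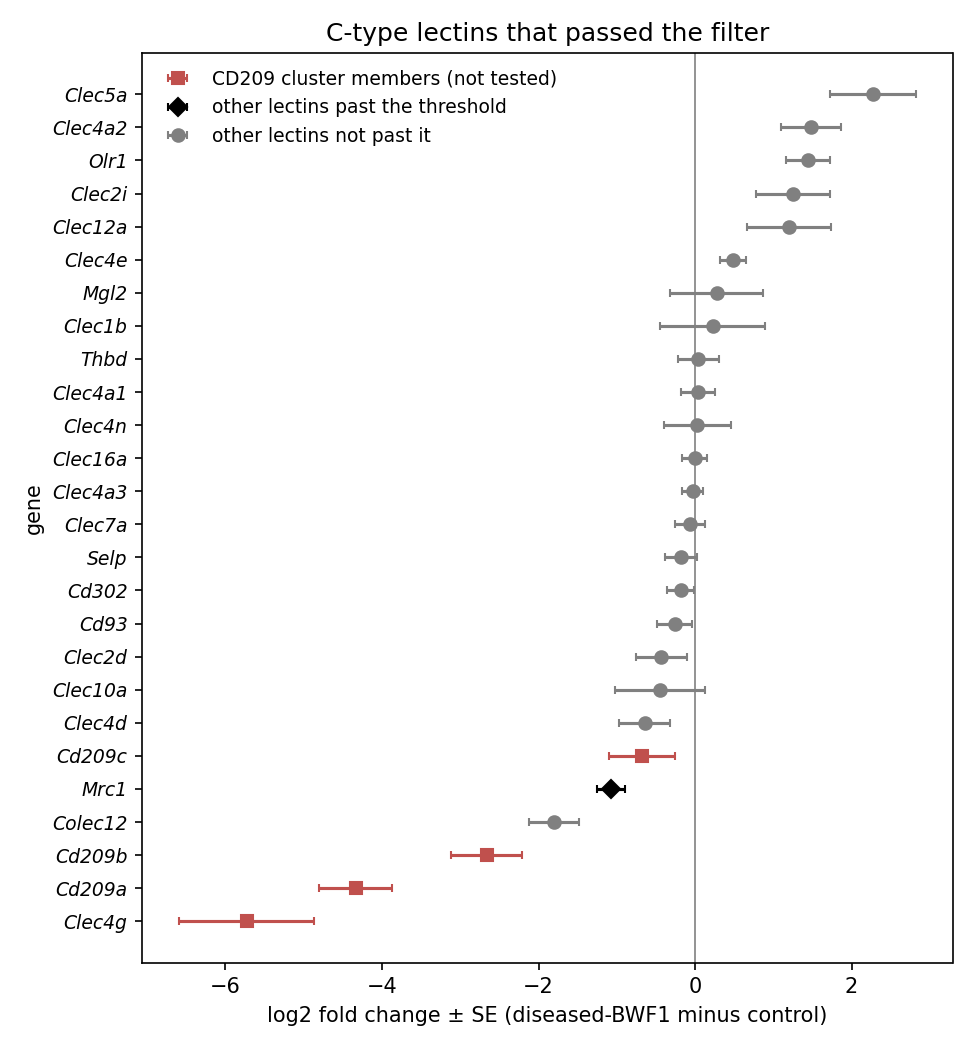
Log2 fold change with its standard error (horizontal axis, diseased-BWF1 minus control) for the C-type lectin genes that passed the filter, 1 gene per line. Red squares are the 4 cluster members, whose calls are not tests, the black diamond is Mrc1, the other lectin past the threshold, and grey circles those that were not.

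Human CD209 signals through a set of kinases, GTPases and NF-kappa B subunits, and 18 of 19 genes listed for it were tested. Only Ikbke, the kinase IKK-epsilon, passed the threshold, 5.56% of those tested against 1.22% of all genes. An unadjusted p under 0.05 (edgeR) was found for 3, against 13.2% of all genes. Ikbke rose from 383, 291 and 247 counts to 658, 460 and 553, with no overlap and a log2 fold change of 0.87 (SE 0.14, adjusted p = 0.0437, edgeR). The call was lost on leaving out any 1 of the 6 mice, with adjusted p from 0.0586 to 0.167 and log2 fold changes from 0.76 to 0.98. Rhoa, a small GTPase, and Arhgef12, an exchange factor for it, had the most counts of the list, with log2 fold changes of -0.08 (SE 0.13) and 0.06 (SE 0.20) and overlapping groups. The list's median was 0.08. For 4 genes of known cell-surface ligands of human CD209, Icam2, Ceacam1, Itgam and Itgb2, 0 calls were made by edgeR and 0 by DESeq2. An unadjusted p under 0.05 (edgeR) was found for 1, Icam2 at -0.55 (SE 0.16), against 13.2% of all genes. Itgam and Itgb2, the chains of the integrin CD11b/CD18, differed by 0.13 (SE 0.16) and -0.14 (SE 0.16) on the log2 scale, with overlapping groups.

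Interleukin-4 is known to induce CD209 in human myeloid cells, and 12 of 18 genes listed for the response to that cytokine were tested. Mrc1, whose call was lost without any of 5 mice as given above, was the only one called, 8.33% of those tested against 1.22% of all genes. DESeq2 called 1 higher and 2 lower, against 1.27% and 2.29% of all genes. An unadjusted p under 0.05 (edgeR) was found for 5, against 13.2% of all genes, and the median log2 fold change was 0.13. Beside Mrc1, DESeq2 called Ccl24 lower, at a log2 fold change of -1.63 (SE 0.33, adjusted p = 0.073, edgeR). It called Tgm2 higher, at 1.19 (SE 0.23, adjusted p = 0.0718, edgeR). Ccl24 and Tgm2 had groups without overlap and were named after their values were seen. Alox15, the 12/15-lipoxygenase of resident PMs, had 18884 to 26090 counts in control mice and 17587 to 27427 in diseased-BWF1 mice, or a log2 fold change of -0.03 (SE 0.19). Cd36, a scavenger receptor, was at -0.20 (SE 0.19) with overlapping groups.

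The sorted cells carried the marker genes of the large resident PMs that the sort aims at. All 17 genes listed were tested and 0 were called by edgeR, against 1.22% of all genes, with 3 at an unadjusted p under 0.05 (13.2% of all genes) and 1 called lower by DESeq2 (2.29%), and the median log2 fold change was -0.038. Their summed level was 41130 to 43850 CPM in control mice and 41090 to 50840 in diseased-BWF1 mice. Prg4, which encodes lubricin, was the most counted, at a log2 fold change of 0.29. The genes under an unadjusted p of 0.05 were Cd68 at -1.10 (SE 0.22), which DESeq2 called, Icam2 at -0.55 (SE 0.16) and Timd4 at -0.53 (SE 0.21). Cd68 and Timd4 were named after their values were seen. In this list 4 genes were lower and 1 higher without overlap, against 11.1% and 9.82% of all genes. Markers of small PMs and of monocyte-derived dendritic cells, for which Cd209a itself is used as a marker, summed to 45210 to 68900 and 65260 to 69810 CPM. Nearly all of that was Fn1, the gene of fibronectin, with 248809, 246868 and 141838 counts against 275490, 259838 and 246342. The sums therefore give the level of Fn1 and not the abundance of small PMs or dendritic cells. Ccr2 had 13, 8 and 2 counts against 24, 6 and 31, and Itgax 0, 2 and 0 against 1, 0 and 0. Of 22 genes in that list 14 were tested, Mrc1 was called lower and 0 higher, 7.14% of those tested against 1.22% of all genes, and this is the same call that was lost without any of 5 mice. An unadjusted p under 0.05 (edgeR) was found for 3, against 13.2% of all genes, and the median was 0.146. DESeq2 called 2 lower, Mrc1 and Folr2, against 2.29% of all genes. Folr2, named after its values were seen, had 415, 421 and 521 counts against 161, 31 and 227. Its log2 fold change was -1.74 (SE 0.58, adjusted p = 0.254, edgeR). Retnla, second in counts, had 2237, 4701 and 2692 counts against 3252, 419 and 52. Cd207 and Ccr7 were at 0 in all libraries. Whether the make-up of the sorted cells had a part in the lower counts of Cd209a and Cd209b was not tested.

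Class II genes were high in 1 library of each group. H2-Aa, named here after its values were seen, had 681, 75 and 48 counts in control mice against 550, 116 and 70 in diseased-BWF1 mice, and Cd74, the invariant chain, 2340, 212 and 172 against 1717, 259 and 195. Mouse 1 of each group was thus high in both genes. Cd209a, Cd209b and Clec4g were, among the controls, lowest after scaling in mouse 1, and in the diseased-BWF1 group highest in mouse 2. The log2 fold change of Cd209a was -4.58 without control mouse 1 and -4.16 without diseased-BWF1 mouse 1, and that of Cd209b -2.80 and -2.54.

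**Figure D4:**
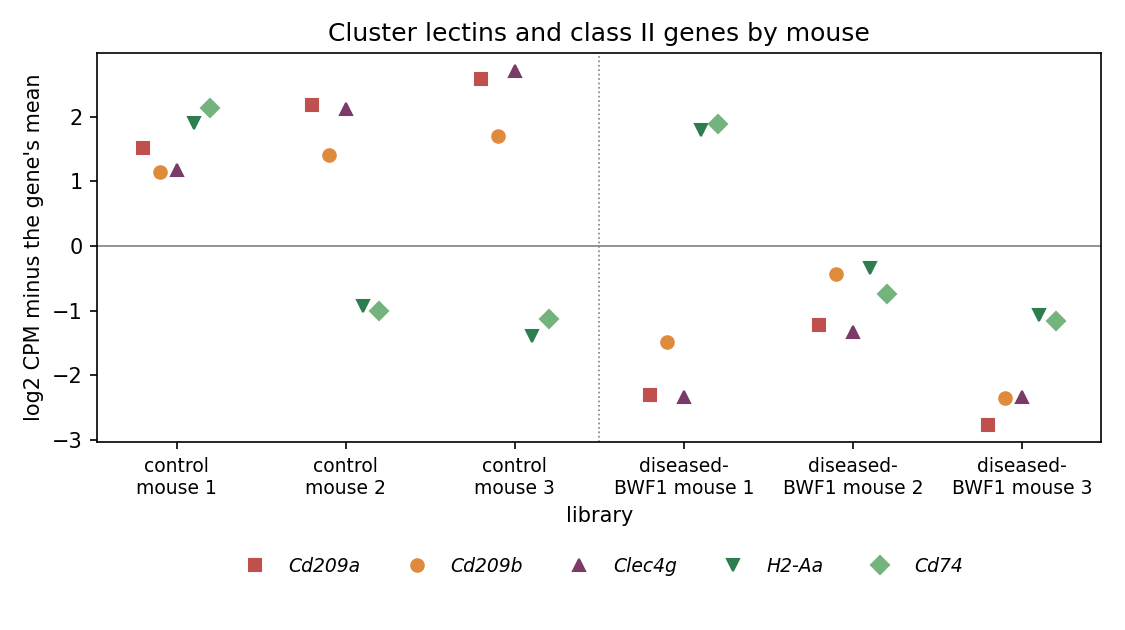
Log2 CPM of Cd209a, Cd209b, Clec4g and the class II genes H2-Aa and Cd74 in each of the 6 libraries, each gene centred on its mean. The 3 lectins lie above their mean in the 3 control mice and below it in the 3 diseased-BWF1 mice, while the class II genes are high in mouse 1 of each group.

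The summed level of monocyte markers was higher in diseased-BWF1 mice, where the lectins were lower. It was 40.0 to 70.1 CPM in control mice and 131.9 to 166 in diseased-BWF1 mice. Of 9 listed genes 6 were tested and all 6 were fitted above 0, with 0 called by edgeR, 2 called higher by DESeq2 (1.27% of all genes) and 5 at an unadjusted p under 0.05 (edgeR, 13.2% of all genes). Most of the sum came from Itgal, Cd177, Nr4a1 and Ace. Itgal, the alpha chain of the integrin LFA-1, was the most counted, with 120, 41 and 36 counts against 90, 177 and 112, and its groups overlapped. DESeq2 called Ace, with 35, 37 and 24 counts against 67, 202 and 96, and Nr4a1, with 46, 57 and 11 against 150, 149 and 88. Both had groups without overlap and were named after their values were seen. Treml4 was at 0 in control mice and had 1, 2 and 6 counts in diseased-BWF1 mice. Ly6c2, which defines classical monocytes, had 1 count in control mouse 1 and 0 elsewhere. B cell markers summed to 137.3 to 164.6 CPM in control mice and 82.9 to 109.5 in diseased-BWF1 mice. Nearly all of that was Bank1, with 620, 588 and 427 counts against 386, 393 and 304, while Cr2 had 1, 0 and 2 against 4, 2 and 3 and Fcer2a the counts given above. Endothelial markers, listed because Clec4g is known from endothelium, summed to 126 to 309.1 and 29.3 to 172.3 CPM. Nearly all of that was Lyve1, a gene that macrophages also use, at 571, 604 and 997 counts against 117, 192 and 655, while Cdh5, the endothelial cadherin, was at 0 in all 6 libraries and Stab2 had 1 count in control mouse 2. Markers of T and NK cells, mast cells, granulocytes and mesothelium summed to at most 4.98 CPM in any library, with Cd3d, Cpa3, S100a8 and Upk3b the most counted. The part of these cells in the differences of the lectins was not tested.

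Genes whose pattern was most like that of a member were found by the root mean square difference of log2 CPM over the 6 libraries. The search covered 9401 genes with a mean of at least 20 counts. Each gene was centred on its mean of all 6 libraries, so the distance includes the group difference on which the members were chosen. All genes named as nearest had a fitted log2 fold change of -2.15 (Xlr) or lower. The ranks are a description, and shared regulation was not tested. Clec4g was the nearest to Cd209a, at 0.233, and Cd209b ranked 8th at 0.706. With 0, 2 and 0 counts of Clec4g in diseased-BWF1 mice, its distance depends on the prior count of 2. The fitted log2 fold changes were -5.73 for Clec4g and -4.34 for Cd209a. After Clec4g came Mrvi1 at 0.411, Zfp991 at 0.431, Enpp1, an ecto-nucleotide pyrophosphatase, at 0.457 and Cgnl1, a protein of cell junctions, at 0.487. Cgnl1 had 1369, 1549 and 843 counts in control mice against 72, 121 and 68 in diseased-BWF1 mice. The nearest to Cd209b was Sh3bgrl2 at 0.184, with 48, 38 and 40 counts against 4, 7 and 1. The prior count weighs on that distance too, since the fitted log2 fold changes were -3.36 for Sh3bgrl2 and -2.66 for Cd209b. Klhl13 at 0.265, Glb1, the lysosomal beta-galactosidase, at 0.426, Jam2, a junctional adhesion molecule, at 0.441 and Xlr at 0.447 followed, and Cd209a ranked 27th. Glb1 had 1163, 1144 and 1115 counts against 259, 236 and 143.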

How the data were processed

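Libraries were stranded mRNA libraries sequenced with paired-end reads of 75 bases. The authors deposited, per mouse, estimated counts on 107193 RefSeq transcript records, given as whole numbers that had not been normalized. The submitters' processing notes name Salmon 0.8.0, DESeq2 and GRCm38.p6, with no account of their roles, and the values were taken as rounded estimated counts. A RefSeq gene table of GRCm38.p6 matched 45749 records with the same version and 40709 with another version, and 20735 records without a gene were left out. Counts were summed per gene.

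Groups were compared with edgeR 4.0.16 in R 4.3.3, using filterByExpr, TMM, estimateDisp, glmQLFit and glmQLFTest with Benjamini-Hochberg adjustment over 10502 genes. Calls required an adjusted p under 0.05 together with a change of 1.5-fold or more, as in the study's methods. DESeq2 1.42.0 gave size factors and an alternative test. Log2 CPM used a prior count of 2. Standard errors are the absolute log2 fold change divided by the root of the F statistic. The fold change of Cd209d came from a fit without the filter. Counting intervals are exact binomial 95% intervals of summed counts (SciPy 1.17.1). The code was tested on simulated data. Genes of all 6 libraries were used, and gene positions and start sites come from the RefSeq tables, exons from GENCODE vM21.

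The members and gene lists were chosen with earlier results of these data known. Named are all members and other genes of the cluster, the called genes of each list (at most 4 in each direction) and the 2 with the most counts, the nearest tested gene on each side of the cluster, the 5 genes most like Cd209a and the 5 most like Cd209b, and the most counted gene of each marker list. Results for 3 genes of these lists are not reported here, and the lists were counted and summed without them. The ETS core was added after the sequences were read. Alternatives were DESeq2, other normalizations, other filters, age as a covariate, a block for the replicate number, each mouse left out, and other choices of records.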

Additional observations from a re-analysis of the deposited data

How the results depend on the processing

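Members with a fitted fold change kept their direction under all alternatives run. Cd209c took a log2 fold change of -4.76 with records of the same version alone, which leaves out its curated record. Clec4g took -8.35 with curated records, -8.36 with records of the same version and -8.36 with its most counted curated record alone, where diseased-BWF1 mice have 0 counts. With each mouse left out in turn, log2 fold changes ran from -5.01 to -4.02 for Cd209a, -3.30 to -2.32 for Cd209b, -0.86 to -0.41 for Cd209c, -4.18 to -3.35 for Cd209d and -8.40 to -5.20 for Clec4g. The lower ends for Cd209a (-5.01), Cd209b (-3.30) and Clec4g (-8.40) were those without diseased-BWF1 mouse 2. A filter of at least 10 counts in every library kept only Cd209b among the members, and the fold change of Cd209f, with 2 counts in all, is not reported. The difference in the share of Cd209b counts on its most counted record ran from 0.58 to 14.2 percentage points, and that in the Cd209b share of both genes from 9.15 to 11.4. These mice-out values of shares were added after seeing the data.

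Counts of called genes depended on the setting, and the cause was not tested. Over all genes the 128 calls became 373 with DESeq2, 259 without the filter, 84 with at least 10 counts in every library, 16 with curated records, 24 with records of the same version and 21 to 56 with a mouse left out. For the other lectins the 1 call became 4 with DESeq2, 4 without the filter, 2 with at least 10 counts in every library, 0 with age as a covariate, curated records or records of the same version and 0 to 1 with a mouse left out. The 1 call of the signalling list became 0 with age, curated records, records of the same version and any mouse left out. The 1 call of the interleukin-4 list became 3 with DESeq2, 3 without the filter, 0 with curated records or records of the same version and 0 to 1 with a mouse left out. The 1 call of the small PM list became 2 with DESeq2, 0 with age, curated records or records of the same version and 0 to 1 with a mouse left out. The 0 calls of the large PM list became 1 with DESeq2, 1 without the filter and 1 with age, and stayed at 0 with a mouse left out. Ligands and neighbours on chromosome 8 had 0 calls under each of these settings. Cluster genes that are no members had 0 as well, but none of them passed the filter of the main fit, so that none could be called there.

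The replicate numbers of the labels do not mark shared animals. Deviations of same-numbered mice correlated at 0.118, 0.00554 and 0.157 across genes, against -0.144 to 0.0573 for mice of different numbers. The pairs of mice 1 and of mice 3 were thus the highest, while control mouse 2 correlated best with diseased-BWF1 mouse 1 (0.0573). Whether same-numbered mice were handled together is not given by the labels and was not tested. The numbers were not taken to pair the mice. With the replicate number as a block, 38 genes were called in all and 0 in the other lectins and the signalling, interleukin-4 and small PM lists.

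For the 24 named genes that are no members, 305 of 352 values under alternatives kept direction and side of the threshold, 35 were no longer past it, 8 came past it and 4 changed sign. These were Arhgef12 (-0.13 without control mouse 3, -0.13 to 0.17 with a mouse left out), Alox15 (0.05 and 0.07 without diseased-BWF1 mouse 2 or 3, -0.23 to 0.07 with a mouse left out) and Cd36 (0.15 with curated records), whose main values lay near 0. Depth limits Cd209d, Cd209f and Clec4g, which had at most 2 counts in any diseased-BWF1 mouse.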
